A study of Mus musculus with 178 samples.

Results

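The nuclear genes for the mitochondrial respiratory chain and ATP synthase were followed in mouse blood. Members were the rows of the count table whose symbol begins with Nduf (complex I), Uqcr (complex III), Cox and a digit from 4 to 8 (complex IV) or Atp5 (complex V, the ATP synthase). Symbols that mark pseudogenes (-ps) and Atp5s were left out. This gave 93 rows of 55450, with 92 symbols, since Atp5o has 2 rows. The annotation calls 4 of them processed pseudogenes (Ndufa11b, Ndufb4c, Ndufs6b and Cox6c2), which the names do not show; they are counted with the subunits, and Ndufb4c was the 1 that passed the filter on low counts. Complex I had 49 rows (41 subunits and 8 Ndufaf assembly factors), complex III 8, complex IV 19 (18 subunits and Cox7a2l, a supercomplex factor) and complex V 17. Members were placed by symbol, so Ndufa4, which sits in complex IV, is in all counts and levels of complex I below.

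The 178 libraries were whole blood RNA of 45 C57BL/6J mice, 6 to 8 weeks old, with orthotopic 4MOSC1 tumors (carcinogen-induced oral squamous carcinoma cells) in the tongue or buccal mucosa. Blood was drawn on Day 4, before the first dose of an antibody against PD-1 (clone RMP1-14), and on treatment on Days 9, 17 and 24. Tumor response split the mice into 15 responders and 30 non-responders, and all of them received the antibody, so an untreated group is not part of these comparisons. The groups held 15, 15, 14 and 15 libraries of responders and 29, 30, 30 and 30 of non-responders on the 4 days. A mouse gave 1 library a day. The model is 1 cell line in 1 inbred strain, and 4 Y-linked genes were at 0 and Xist above 0 in all 178 libraries.

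The respiratory chain passes electrons from NADH and succinate to oxygen and pumps protons across the inner mitochondrial membrane. ATP synthase lets the protons flow back and makes ATP. Complex I takes electrons from NADH, complex III passes them to cytochrome c, and complex IV hands them to oxygen. A core of catalytic subunits does this chemistry, many small accessory subunits surround the core, and a few subunits are encoded in mitochondrial DNA. Mature red cells have no mitochondria, whereas reticulocytes, their young form in blood, still hold mitochondria and mRNA and lose them as they mature. Platelets, lymphocytes, monocytes and neutrophils carry mitochondria in different amounts. In a bulk sample of blood, fewer cells of a type and less RNA per cell cannot be told apart.

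Total counts ranged from 26058958 to 82208665 per library, and haemoglobin genes took 68.7% to 88.0% of them. The counts of all other genes were 4535330 to 22174668, and the members held 16138 to 81355 counts, or 0.317% to 0.541% of these other counts. Markers of T cells, B cells, natural killer cells, monocytes, neutrophils, platelets and reticulocytes were all present, with no listed gene at 0 in every library. The Day 24 library of non-responder 29 stood apart, with a haemoglobin share of 88.0%, 12630 genes with a count (median 16959.5 over all libraries) and a TMM factor of 0.0848 against 0.266 for the next lowest. TMM is the scaling that edgeR uses to make libraries comparable, and CPM below is the depth-scaled count after it. Ear tags form a 4-digit series (11 responders, 7 non-responders) and a 3-digit series (4 responders, 23 non-responders), and nothing in the labels says what the series stands for. The Day 17 library of non-responder 24 is labelled a responder, while the labels of the mouse on its other days say non-responder; here the mouse is a non-responder on all days.

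Between genes, levels were compared as deposited TPM (a level per transcript length, scaled to a fixed total that includes haemoglobin). Atp5b, the catalytic beta subunit of ATP synthase, was the most abundant member, with a median of 63.1 TPM (41.1 to 96.7). Cox6c, a small subunit of complex IV, followed with 41.2 TPM (22.5 to 65.6), then Atp5l, a subunit of the membrane part of ATP synthase, with 38.1 TPM (24.9 to 70.3). Uqcrh, the hinge protein of complex III, had 34.4 TPM (17.9 to 56.0). The ranges of these neighbours overlap over the libraries. Cox6a1 of complex IV had 29.9 TPM, and the highest of complex I were Ndufa1 with 16.6 TPM and Ndufa3 with 10.7 TPM.

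At the low end, the assembly factors Ndufaf2 and Ndufaf6 of complex I had medians of 0.22 and 0.09 TPM. Among the tested members of the other complexes the lowest were Uqcrfs1, the Rieske iron-sulfur protein (1.90 TPM), and the core protein Uqcrc2 (3.38 TPM) in complex III, Cox5b (3.67 TPM) and Cox7b (6.70 TPM) in complex IV, and Atp5g1 (2.27 TPM) and Atp5o (4.26 TPM) in complex V. Second in complex III was Uqcr10, a small subunit, with 8.59 TPM. Of the 10 members with the highest medians, none belonged to complex I.

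**Figure D1:**
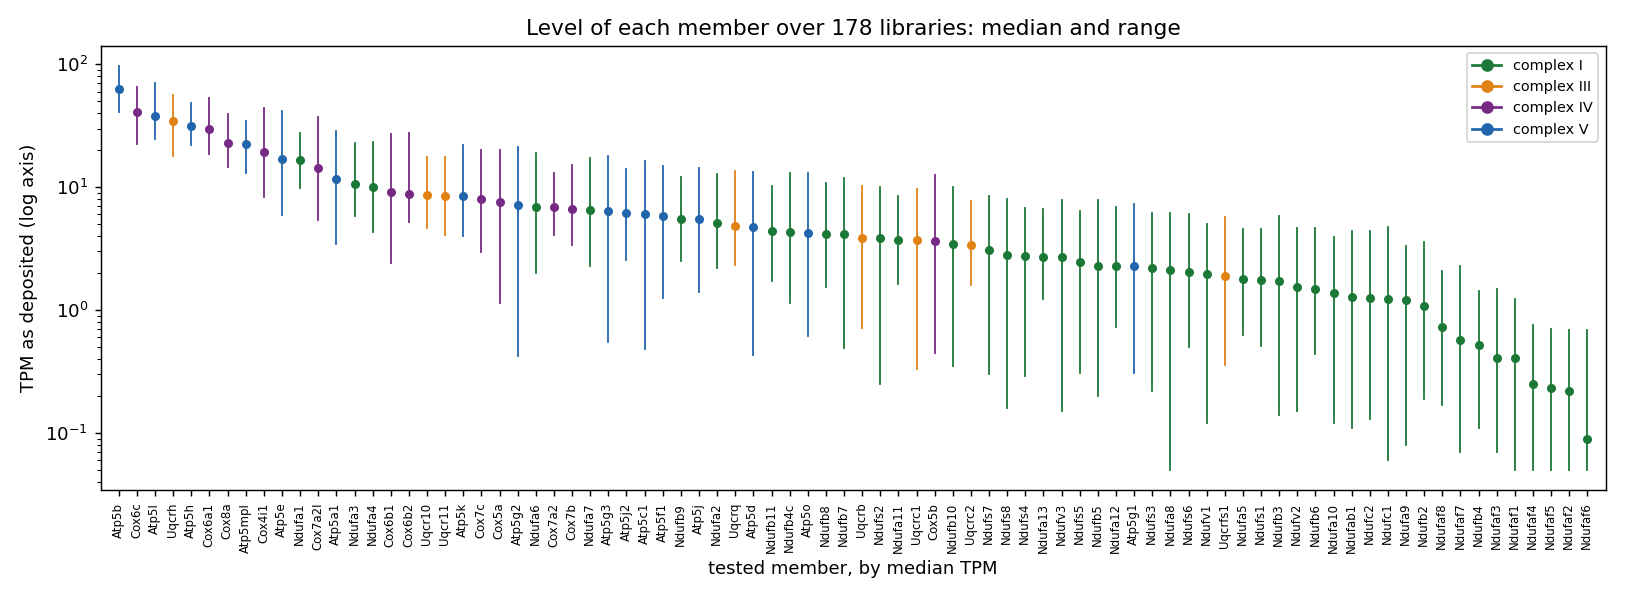
Median (point) and range (line) of the deposited TPM of each tested member over 178 libraries, on a log axis, ordered by median and coloured by complex. Ranges that reach 0 end at 0.05; Atp5b stands first with 63.1 TPM and Ndufaf6 last with 0.09 TPM.

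Several positions of complex IV have tissue-specific isoforms, and blood held the common form at nearly all of them. Cox7b2 and Cox8b had no count in any library, and Cox8c had counts in 2, Cox4i2 in 21, Cox7a1 in 58 and the heart and muscle isoform Cox6a2 in 124, with a highest TPM of 0.27 for Cox6a2. Their partners Cox4i1, Cox6a1, Cox7a2, Cox7b and Cox8a had medians of up to 1158 counts and were counted in all 178. The exception was Cox6b2, known as the testis isoform of Cox6b1. Cox6b2 was counted in all 178 libraries (135 to 771 counts) with a median of 8.77 TPM, against 9.22 TPM for Cox6b1. The gene lies at chr7:4751792-4753094 (GRCm38, minus strand). At the Ndufa4 position, Ndufa4l2 had counts in 48 libraries and a highest TPM of 0.56. Outside these positions Ndufa11b, Ndufs6b, Cox6c2 and the second row of Atp5o were at or near 0. These 11 rows (Cox4i2, Cox6a2, Cox6c2, Cox7a1, Cox7b2, Cox8b, Cox8c, Ndufa4l2, Ndufa11b, Ndufs6b and the second Atp5o row) passed no filter on low counts, so 82 members were tested over all libraries (81 in some comparisons, where Ndufaf6 did not pass).

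Counts that were not whole limit a few members. Deposited counts were not whole in at least 1 library for 23 members, and in at least 50% of the libraries for 7 of them: Ndufa12, Ndufb4, Ndufb4c, Ndufb9, Atp5g2, Atp5h and Atp5l. Their levels may depend in part on how the authors' counting split reads shared between similar genes, which was not tested.

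The members first separated by how their level moved with the haemoglobin share. The Ndufs7 value below, the members around the limit and Cox6b2 on Day 4 were picked after their values were seen. The slope was fitted within the 8 groups of day and response, per 10 percentage points of haemoglobin, in edgeR with adjustment over 13688 genes. Libraries of the same mouse were taken as independent, and no slope fit with the mouse as a block was run. The slope was positive and called (adjusted p of at most 0.05, the threshold used throughout) for 57 of 82 members and negative for 2. Over all genes, 23.1% were called upward and 27.6% downward. The median slope was 0.22 (log2) for members and -0.04 for all genes. On log2(TPM + 1) the raw direction turned: none of 73 members was called upward and 72 downward. The medians were -0.88 for members and -0.92 for all genes. The TPM total includes haemoglobin, and its part in this turn was not tested.

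Slopes were counted by complex, with no test of a difference between complexes. All 12 tested members of complex IV and all 16 of complex V were called upward, with median slopes of 0.84 and 0.30. Complex III had 7 of 8 and a median of 0.56. Complex I had 22 of 38 subunits called upward, 1 downward (Ndufc2, -0.14) and a median of 0.14. None of the 8 Ndufaf assembly factors was called upward, 1 was called downward (Ndufaf7, -0.18) and their median was -0.05.

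The steepest slopes were those of Cox6b2, Atp5l, Uqcrh, Cox6a1 and Atp5b. Cox6b2 rose by 1.51 ± 0.11 (log2 ± SE) per 10 points, Atp5l by 1.33 ± 0.09, Uqcrh by 1.32 ± 0.10 and Cox6a1 by 1.26 ± 0.08. Cox6c rose by 1.23 ± 0.07 with the smallest p of all members (adjusted p = 1.24e-38), followed by Atp5h, a stalk subunit of ATP synthase (1.23 ± 0.07, adjusted p = 1.14e-35), and Cox6a1 (adjusted p = 4.98e-33). In all, 25 members had a called slope of at least 1.5-fold per 10 points, and 32 had a smaller one. The share of all genes with a called slope of at least 1.5-fold is not given, here or for the later counts at this limit. The steep class is therefore a description within the members. Just inside that limit was Cox7c (0.60), with Ndufb11 (0.60), Cox5a (0.62), Uqcrq (0.63) and Ndufa4 (0.63), and just outside it were Atp5e (0.56) and Atp5j2 (0.52).

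Uqcrc2, a core protein of complex III, rose by 0.50 ± 0.06 (adjusted p = 6.64e-12). The slope of Uqcrc1, the other core protein, was 0.09 ± 0.03 (adjusted p = 0.0207), and it was 0.07 and not called (adjusted p = 0.0702) once the non-responder 29 library of Day 24 was left out. Ndufv1, the subunit that binds NADH, had a slope of 0.06 (adjusted p = 0.189) and Ndufs7, an iron-sulfur subunit, one of 0.02 (adjusted p = 0.610). The haemoglobin share comes from the same libraries as the members' counts. Removing the haemoglobin genes before scaling left 61 members called upward and 1 downward.

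**Figure D2:**
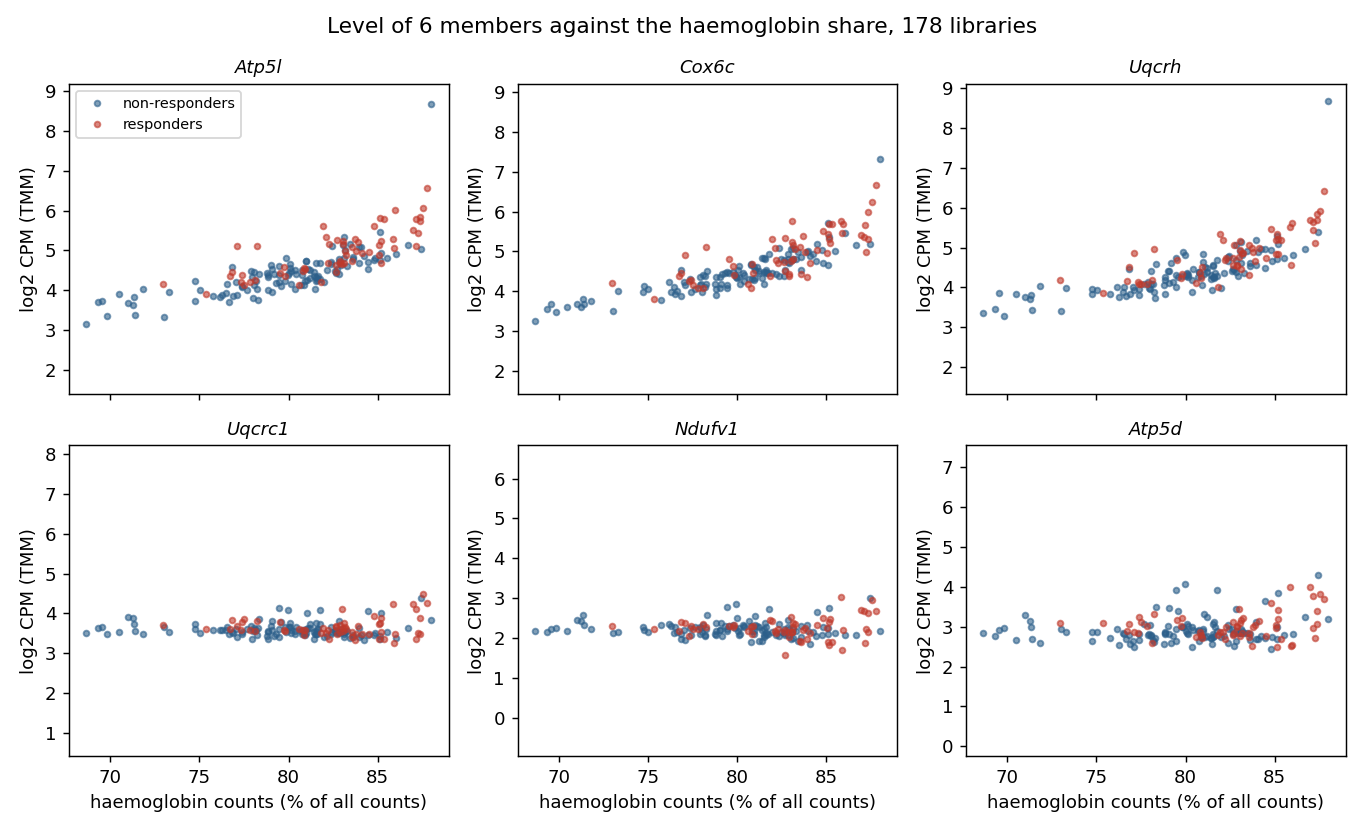
TMM-scaled log2 CPM of 6 members against the percent of counts in haemoglobin genes, 1 point per library (red responders, blue non-responders). Atp5l, Cox6c and Uqcrh climb across the range from 68.7% to 88.0%, Uqcrc1 and Ndufv1 stay near level with slopes of 0.09 and 0.06 (log2 per 10 points), Atp5d has a slope of 0.29, and the single point at 88.0% is the Day 24 library of non-responder 29.

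Fewer slopes were called within single days other than Day 4. On Day 4 alone 64 of 82 members were called upward and 1 downward (all genes: 24.3% and 24.9%), on Day 9 alone 27 and 1 (8.95% and 2.35%), on Day 17 alone 26 and 3 (12.1% and 4.47%), and on Day 24 alone 41 and 0 (16.6% and 8.08%). Leaving out the Day 24 library of non-responder 29 gave 53 called upward and 2 downward (21.7% and 30.0%). That library, with 88.0% haemoglobin, is part of the fit that chose the 25 steep members, and without it 18 had a called slope of at least 1.5-fold. As a description, the CPM of the 25 in it was 2.52 to 19.6 times the median of the other non-responder libraries of Day 24 (median ratio 10.7). Marker lists were called beside the members, where 23.1% of all genes were called upward and 27.6% downward: 15 of 15 reticulocyte genes (such as Alas2, the first enzyme of haem synthesis in red cells, and Slc4a1, the red cell anion exchanger) were called upward with a median slope of 1.75, 8 of 8 platelet genes with 1.01, and 4 of 9 T cell genes with a median of 0.10. Of the other lists, 0 of 8 neutrophil genes were called, of 8 B cell genes 1 was upward and 3 downward, of 7 natural killer cell genes 1 and 2, and of 7 monocyte genes 2 and 1.

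Promoters of 3 members with a steep slope (Atp5l, Cox6a1, Uqcrh) and of 1 with a small called slope (Uqcrc1) are shown with motifs, to set members with different slopes side by side. No motif searched was found in all 4. RefSeq promoter windows (GRCm38.p6) were found for 71 of 92 symbols. The 250 bases before the start were searched on both strands for GCGCATGCG (NRF-1, nuclear respiratory factor 1), CCGGAAG (ETS factors, which include the GABP factor of mitochondrial genes), GGGCGG (SP1), GATAA (GATA factors, which include the erythroid GATA1) and CCAAT (the CCAAT box). These motifs do not contain one another. Below, each run is 5′ to 3′ on the strand of the gene, capitals mark matches to any of the 5 motifs, and bases inside the gene as GENCODE M21 places it were left off (an ETS match of Cox6a1 among them).

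Atp5l: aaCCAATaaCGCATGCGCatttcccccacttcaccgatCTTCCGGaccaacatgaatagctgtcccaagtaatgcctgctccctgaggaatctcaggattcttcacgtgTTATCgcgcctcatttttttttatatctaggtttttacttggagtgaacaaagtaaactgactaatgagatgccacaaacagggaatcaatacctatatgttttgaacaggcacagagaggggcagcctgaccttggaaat

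Cox6a1: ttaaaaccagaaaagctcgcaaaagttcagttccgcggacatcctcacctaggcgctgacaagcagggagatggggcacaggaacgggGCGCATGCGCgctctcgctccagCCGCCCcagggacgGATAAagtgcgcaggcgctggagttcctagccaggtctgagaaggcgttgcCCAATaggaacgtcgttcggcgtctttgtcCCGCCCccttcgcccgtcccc

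Uqcrh: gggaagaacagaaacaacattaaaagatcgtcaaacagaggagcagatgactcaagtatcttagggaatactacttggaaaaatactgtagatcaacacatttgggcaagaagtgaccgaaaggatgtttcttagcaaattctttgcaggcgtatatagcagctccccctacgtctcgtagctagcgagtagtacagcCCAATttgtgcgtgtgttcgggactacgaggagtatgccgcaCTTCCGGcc

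Uqcrc1: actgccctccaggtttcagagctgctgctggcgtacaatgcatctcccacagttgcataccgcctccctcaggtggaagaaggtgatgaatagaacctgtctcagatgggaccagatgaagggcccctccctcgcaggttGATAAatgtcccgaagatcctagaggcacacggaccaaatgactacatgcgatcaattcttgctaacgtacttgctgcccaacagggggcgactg

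The runs lie at chr9:44920743-44920992 (Atp5l, minus strand), chr5:115348982-115349208 (Cox6a1, minus strand), chr4:116075072-116075320 (Uqcrh, minus strand) and chr9:108936398-108936632 (Uqcrc1, plus strand). The NRF-1 letters stood in 7 of 71 member promoters (9.86%) and in 1.45% of 27025 promoters of the table, and the ETS letters in 18.3% and 7.14%. SP1 letters stood in 38.0% of member promoters and 32.65% of all, GATA letters in 21.1% and 23.05%, and CCAAT in 43.7% and 34.2%. In 19 promoters of the steep class and 20 of members without a called slope, NRF-1 letters stood in 15.8% and 10%. For ETS the shares were 26.3% and 15%, for SP1 42.1% and 45%, for GATA 31.6% and 10%, and for CCAAT 57.9% and 40%. No test was run on them. These are matches of letters, with no measurement of binding.

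Responders had the higher haemoglobin share early. On Day 4 it ranged from 75.4% to 87.8% in responders (median 83.8%) and from 68.7% to 87.4% in non-responders (median 79.4%). The means differed by 5.22 percentage points (two-sided permutation test, p = 0.0013, adjusted p = 0.0056 over 10 tests of the share). On Day 9 the difference was 4.47 points (adjusted p = 0.002), on Day 17 it was 1.02 points (adjusted p = 0.526) and on Day 24 it was 0.33 points (adjusted p = 0.9415). The groups overlapped on every day. Within the 4-digit series the Day 4 and Day 9 differences were 2.62 and 1.61 points (exact permutation tests, p = 0.150 and 0.275), and within the 3-digit series 6.94 and 4.98 points (exact permutation tests, p = 0.0281 and 0.0146). From Day 4 to Day 17 the share rose in non-responders by a mean of 3.86 points (higher in 19 of 29 mice, adjusted p = 0.0056) and by Day 24 by 3.74 points (20 of 29 mice, adjusted p = 0.0056). In responders no change passed, with means of -0.31, -0.08 and -1.19 points on Days 9, 17 and 24.

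The first comparison asks whether the members' levels before treatment differ between mice that later respond and mice that do not. On Day 4, on the TMM scale, 30 of 82 members were higher in responders and none lower, where 6.4% of all genes were called higher and 1.01% lower; on deposited TPM, which counts haemoglobin in the total, none was higher and 61 of 74 were lower, with the median of all genes at -0.45 (log2). By complex these were 7 of 12 in IV, 5 of 8 in III, 8 of 16 in V, 10 of 38 subunits in I and 0 of 8 assembly factors. The median log2 fold change was 0.25 for members and -0.01 for all genes.

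Atp5l was at 14.95, 25.9 and 95.0 CPM (lowest, median, highest) in responders and at 8.87, 17.1 and 32.95 CPM in non-responders on Day 4. The responders reached higher, and the groups overlapped between 14.95 and 32.95 CPM. Atp5l was 1.94-fold higher (log2 0.96 ± 0.18 SE, adjusted p = 0.0030). Cox7b, a small subunit of complex IV, was at 6.95, 12.7 and 41.25 CPM in responders and at 4.53, 8.56 and 14.6 CPM in non-responders. It overlapped in the same way and was 1.80-fold higher (adjusted p = 0.0030). Atp5k, a subunit of the ATP synthase dimer interface, had 1.98, 3.05 and 9.26 CPM against 0.871, 1.97 and 3.65 CPM and was 1.75-fold higher (adjusted p = 0.0030). The highest fold was that of Cox6b2, 2.10-fold (adjusted p = 0.0056).

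Of the 30 members called on Day 4, 23 were among the 25 with a steep haemoglobin slope, 7 among the 32 with a smaller one, and none among the 25 others. With the haemoglobin share as a covariate none of 82 was called by edgeR (4 at an unadjusted p under 0.05), and the log2 fold change of Atp5l was 0.35 (adjusted p = 0.272). The number of genes called over the whole table fell to 0 as well. With the ear tag series as a covariate 50 were called higher (all genes: 10.7%). In each series alone none passed, with 62 of 81 (4-digit) and 38 of 82 (3-digit) at an unadjusted p under 0.05 and medians of 0.41 and 0.30. Counts at an unadjusted p under 0.05, here and below, stand without the share of all genes at that p. They are therefore not read as results about the members. DESeq2 called 31.

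Genes of some marker lists were called higher in responders on Day 4, where 6.4% of all genes were, and no list was tested as a whole. Of 15 reticulocyte genes 14 were higher in responders (median log2 1.10), with a summed level of 9134 to 87993 (median 28504) CPM in responders and 6465 to 37020 (median 14261) CPM in non-responders. In the monocyte list 4 of 7 genes were higher (median 0.39) and in the neutrophil list 4 of 8 (median 0.44). Of 8 B cell genes 2 were lower (median -0.10), where 1.01% of all genes were. No gene passed in the platelet (8 genes, median 0.43), T cell (9, median 0.01) and natural killer cell (7, median 0.0013) lists. The part of these cells in the result was not tested beyond the fit with the haemoglobin share.

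**Figure D3:**
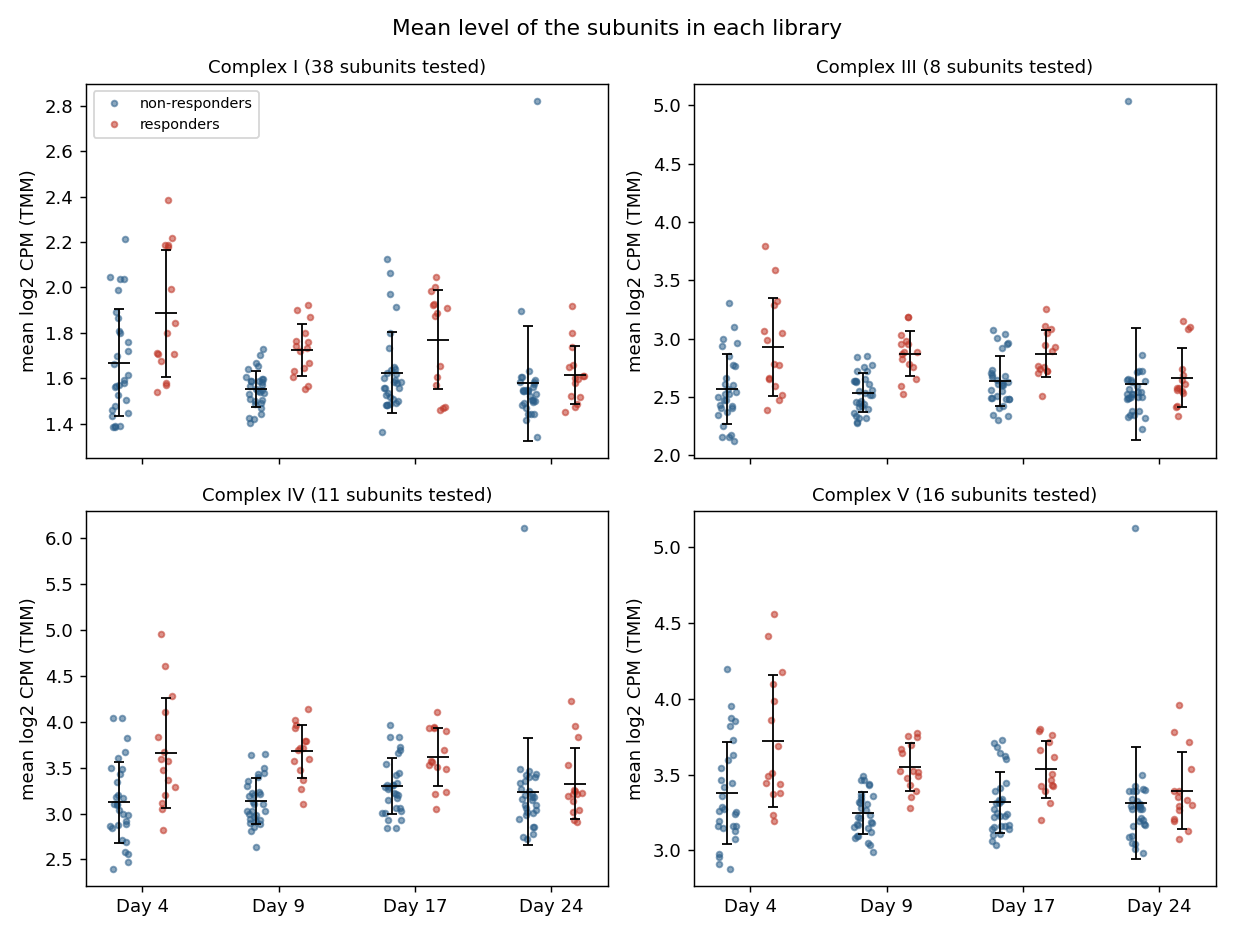
Mean TMM-scaled log2 CPM of the tested subunits of each complex in each library (points: red responders, blue non-responders), by day, with the group mean and SD in black. Responder means lie above non-responder means on Days 4, 9 and 17 in all 4 complexes, the groups overlap, and the single high point on Day 24 is non-responder 29.

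The mean over a complex was described with no test, on the TMM scale. On log2(TPM + 1) the differences of complexes I, III, IV and V were negative on Days 4 and 9, as were those of III and V on Day 17. On Day 4 the 11 tested subunits of complex IV averaged 3.66 ± 0.60 log2 CPM (SD, n = 15) in responders and 3.12 ± 0.44 (n = 29) in non-responders, a difference of 0.54. The difference was 0.36 for complex III, 0.35 for complex V, 0.22 for complex I and 0.03 for the assembly factors. On Day 9 the spread was smaller: complex IV averaged 3.68 ± 0.29 (n = 15) against 3.13 ± 0.25 (n = 30), a difference of 0.54, with 0.33, 0.31 and 0.17 for complexes III, V and I. By Day 24 the differences were 0.09, 0.05, 0.08 and 0.04 for IV, III, V and I, and without the library of non-responder 29 they were 0.19, 0.14, 0.15 and 0.08.

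On Day 9, after the first doses, 39 of 81 members were higher in responders on the TMM scale and 1 was lower, with 9.43% of all genes called higher and 3.95% lower; on deposited TPM 1 was higher and 55 of 73 were lower, with the median of all genes at -0.43 (log2). By complex the higher members were 10 of 12 in IV, 6 of 8 in III, 8 of 16 in V and 15 of 38 subunits in I. The 1 lower member was Ndufaf4, an assembly factor of complex I. The median was 0.18 for members and -0.02 for all genes.

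Cox6b2 was at 3.71, 9.73 and 16.9 CPM in responders and at 2.07, 3.86 and 8.33 CPM in non-responders on Day 9. The responder median lay above the highest non-responder, and the fold was 2.24 (log2 1.16 ± 0.17 SE, adjusted p = 1.24e-05). Atp5k was at 2.09, 3.35 and 5.85 CPM against 1.15, 1.79 and 3.46 CPM, 1.88-fold (adjusted p = 1.17e-05). Uqcr11, a small subunit of complex III, was at 3.43, 4.46 and 6.81 CPM against 1.92, 3.10 and 4.50 CPM, 1.55-fold (adjusted p = 1.24e-05). In all 3 genes the lowest responder lay inside the non-responder range. Ndufaf4 was at 0.686, 1.28 and 1.625 CPM against 1.21, 1.56 and 2.01 CPM and was lower in responders, 0.82-fold (adjusted p = 0.0031).

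With the haemoglobin share as a covariate 28 members stayed called higher on Day 9 and 1 lower (all genes: 2.69% and 0.587%). Cox6b2 was then at a log2 fold change of 0.79 (adjusted p = 0.0104), Atp5k at 0.70 (0.0070) and Uqcr11 at 0.41 (0.0104). Of the 28, 19 were in the steep class and 9 in the class with a smaller slope. With the ear tag series as a covariate 32 were called higher and 1 lower (5.89% and 1.57%). With both covariates none passed (38 at an unadjusted p under 0.05, median 0.14). In the 4-digit series alone none passed (39 at an unadjusted p under 0.05, median 0.18) and in the 3-digit series 21 were higher (median 0.14, with 3.96% of all genes higher). Beside this, 15 of 15 reticulocyte genes were higher in responders (median 0.94; summed level 16036 to 54293 (median 32481) CPM against 7682 to 36129 (median 17685) CPM), as were 6 of 8 platelet genes (median 0.39), while no gene of the monocyte, neutrophil or T cell lists passed. Of 8 B cell genes 1 was lower, and of 7 natural killer cell genes 1 was higher.

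On Day 17, 7 of 82 members were higher in responders and none lower, with 0.799% of all genes called higher and 1.19% lower. Cox7b was at 10.4, 17.8 and 29.0 CPM in responders and at 7.33, 12.3 and 20.5 CPM in non-responders. The ranges overlapped, and the fold was 1.37 (adjusted p = 0.0307). Ndufa4, which sits in complex IV but is counted here with complex I by its symbol, was 1.304-fold higher (adjusted p = 0.0348). Atp5j2, a membrane subunit of ATP synthase, was 1.21-fold higher (adjusted p = 0.0361). The other 4 were Cox5a, Atp5k, Cox7a2 and Atp5mpl. The count was 18 with DESeq2 (all genes: 1.88% higher) and 10 with the haemoglobin share as a covariate (0.751%). It was 4 with the Day 17 library of non-responder 24 counted as a responder (1.08%). With the ear tag series as a covariate it was 0 (41 at an unadjusted p under 0.05). In that last fit no gene of the whole table was called, and the median log2 difference of the members was 0.21, beside 0.17 without the covariate.

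On Day 24, 2 of 81 members were higher in responders and none lower, with 3.41% of all genes called higher and 5.14% lower. The members called higher were 2 of 81, a share below that of all genes. Uqcrc1 was at 11.0, 12.3 and 15.2 CPM in responders and at 10.0, 11.4 and 14.3 CPM in non-responders, 1.10-fold (adjusted p = 0.0139). Ndufv1 was at 4.26, 4.90 and 6.10 CPM against 3.68, 4.45 and 5.35 CPM, 1.10-fold (adjusted p = 0.0338). Both pairs of ranges overlapped for most of their length. On log2(TPM + 1) limma called no member on this day, and Uqcrc1 and Ndufv1 were at -0.017 and -0.019, with the median of all genes at -0.085. Without the Day 24 library of non-responder 29 the count was 14 higher and none lower (all genes: 12.6% higher). With the ear tag series as a covariate it was 1 (0.313%), with DESeq2 9 (8.82%) and with no filter 1 (0.863%). The glycolysis list had 5 of 14 genes higher on this day (Gpi1, Aldoa, Tpi1, Pgk1 and Eno1).

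The second question is how the members moved from Day 4 in each group. The tests compared the libraries of the days without pairing them by mouse, and counts of mice that rose or fell are a description. Counts from fits with the mouse as a block are given at the end. In responders, 25 of 81 members were lower and 1 higher on Day 9 (all genes: 14.2% lower, 13.5% higher), 20 lower and 3 higher on Day 17 (13.4% and 12.2%), and 43 lower and none higher on Day 24 (9.94% and 7.44%). The members' medians were -0.15, -0.15 and -0.32 against 0.01, 0.01 and -0.01 for all genes. These 3 comparisons share the Day 4 libraries. On log2(TPM + 1) limma called 1 of 72 members (higher) on Day 9 and 0 on Days 17 and 24 (3 and 1 at an unadjusted p under 0.05), with member medians of -0.07, 0.04 and -0.05 and medians of all genes of -0.02, 0.12 and 0.05.

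Atp5d, the delta subunit of the rotor stalk, was at 7.97, 9.51 and 16.0 CPM in responders on Day 4 and at 5.67, 7.22 and 9.86 CPM on Day 9. It was lower in 15 of 15 mice and fell to 0.675-fold (adjusted p = 2.06e-05). Uqcrc1 fell from 11.1, 14.5 and 22.2 CPM to 10.1, 11.5 and 14.0 CPM (lower in 12 of 15 mice, 0.77-fold, adjusted p = 9.01e-05). Atp5o, the subunit that ties the catalytic head to the stalk, fell to 0.68-fold (lower in 14 of 15 mice, adjusted p = 9.77e-05). The Day 9 median of Atp5d lay below its lowest Day 4 value, that of Uqcrc1 lay inside its Day 4 range, and the ranges of the 2 days overlapped in both genes. The 1 member higher on Day 9 was Ndufaf7, a methyltransferase that helps to assemble complex I (1.26-fold, adjusted p = 0.0169, higher in 11 of 15 mice).

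On Day 17 the responders' lowest p belonged to Ndufa10, an accessory subunit of complex I. It went from 4.45, 6.04 and 10.9 CPM on Day 4 to 3.70, 4.14 and 5.10 CPM, lower in 14 of 14 mice (0.68-fold, adjusted p = 4.63e-05). Uqcrc1 (0.77-fold, adjusted p = 1.82e-04) and Atp5o (0.68-fold, adjusted p = 2.24e-04) were again lower than on Day 4, by about the same folds as on Day 9. Ndufb2 (1.27-fold), Ndufab1, the mitochondrial acyl carrier protein (1.247-fold), and Ndufaf4 (1.22-fold) rose, with adjusted p of 0.0102, 0.0207 and 0.0265.

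By Day 24 the fall in responders covered 12 of 16 members of complex V, 20 of 38 subunits of complex I, 5 of 8 of complex III, 5 of 12 of complex IV and 1 of 7 tested assembly factors. Cox6b1, the common form of the intermembrane-space subunit of complex IV, was at 6.43, 8.62 and 16.0 CPM on Day 4 and at 5.43, 6.21 and 10.1 CPM on Day 24. It was lower in 15 of 15 mice (0.68-fold, adjusted p = 3.16e-04). Ndufb7 (0.78-fold, adjusted p = 8.56e-04) and Atp5o (0.70-fold, adjusted p = 0.0011) followed, each lower in 13 of 15 mice. With the haemoglobin share as a covariate 39 members were lower (all genes: 8.64%). At a fold change of at least 1.5 the counts were 0, 0 and 3 on Days 9, 17 and 24, so most falls were small.

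In non-responders the same days gave 33 of 82 members lower and 1 higher on Day 9 (all genes: 27.5% lower, 23.3% higher), 19 lower and 4 higher on Day 17 (24.2% and 21.9%), and 27 lower and 13 higher on Day 24 (24.8% and 23.8%). The share of members lower on Day 17 was near that of all genes. The share higher was below that of all genes on each of these days. The members' medians were -0.13, -0.02 and -0.09. On log2(TPM + 1) limma called 2 members higher and 4 lower of 73 on Day 9, and 64 lower and none higher on each of Days 17 and 24, with the medians of all genes at -0.06, -0.27 and -0.31. The calls for Day 9 were 18 subunits of complex I, 8 of complex V, 2 of complex IV, 1 of complex III and 4 assembly factors.

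Atp5g2, which encodes the c subunit of the proton-driven ring, was at 6.39, 8.69 and 17.2 CPM in non-responders on Day 4 and at 4.13, 7.08 and 8.40 CPM on Day 9 (0.72-fold, lower in 26 of 29 mice, adjusted p = 1.75e-08). Its deposited counts were often not whole, as said above. Atp5d fell to 0.73-fold (24 of 29 mice, adjusted p = 8.31e-08) and Ndufa10 to 0.78-fold (25 of 29, adjusted p = 3.29e-07). The 1 member that rose was again Ndufaf7 (1.17-fold, 20 of 29 mice, adjusted p = 0.0053). On Day 17 Uqcrc1 (0.83-fold, 25 of 29 mice, adjusted p = 4.42e-08), Ndufa10 (0.77-fold) and Atp5g2 (0.74-fold) had the lowest p. Cox7b (1.44-fold, 24 of 29 mice, adjusted p = 0.0051), Ndufa1 (1.36-fold, adjusted p = 0.0183) and Ndufb2 (1.11-fold, adjusted p = 0.0376) rose. With the haemoglobin share as a covariate no member was higher on Day 17 and 37 were lower (all genes: 24.2% higher and 26.2% lower), and the log2 change of Ndufa1 was -0.0033.

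On Day 24 in non-responders Ndufa10 fell to 0.71-fold (26 of 29 mice, adjusted p = 9.97e-11), Atp5d to 0.71-fold (adjusted p = 4.02e-08) and Atp5o to 0.74-fold (adjusted p = 7.29e-08). Atp5l was at 8.87, 17.1 and 32.95 CPM on Day 4 and at 13.1, 21.1 and 407 CPM on Day 24, where 407 CPM was non-responder 29. It rose 1.87-fold (21 of 29 mice, adjusted p = 9.08e-05). Atp5b (1.73-fold, 20 of 29 mice, adjusted p = 1.25e-04) and Cox7b (1.57-fold, 21 of 29 mice, adjusted p = 7.09e-04) rose beside it. Without that 1 library 3 members were higher and 40 lower (all genes: 22.8% and 26.8%), and the log2 change of Atp5l was 0.27 in place of 0.91. With the haemoglobin share as a covariate 0 were higher and 46 lower (26.0% and 26.2%). The reticulocyte list had 15 of 15 genes higher on this day.

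**Figure D4:**
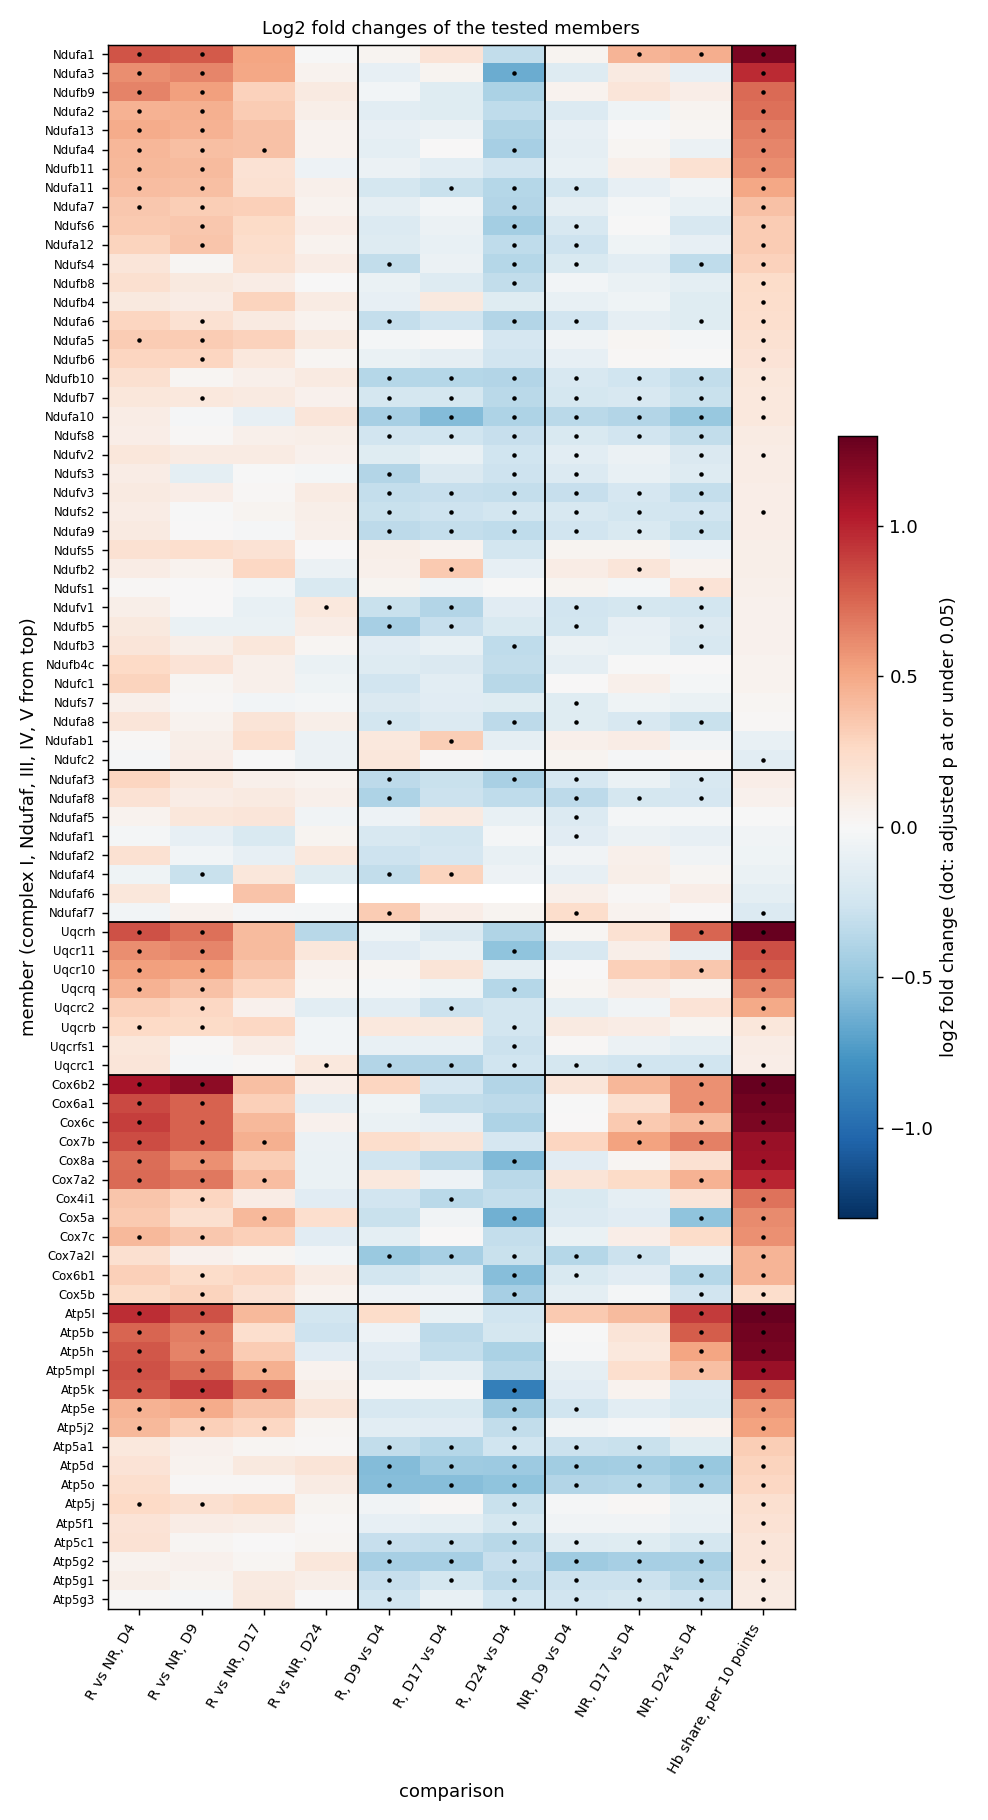
Log2 fold changes of the 82 tested members (rows, grouped by complex and ordered by haemoglobin slope within each) in the comparisons of responders (R) and non-responders (NR), with the slope on the haemoglobin (Hb) share in the last column. Dots mark an adjusted p at or under 0.05; 23 of the 30 calls between the groups on Day 4 are of members with a slope of at least 1.5-fold, 28 of the 43 falls in responders on Day 24 are of members with a smaller called slope, and blank cells were not tested.

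Whether the changes differ between the groups was tested with an interaction term of response by day, fitted on all 178 libraries. For Day 9 no member was called in edgeR (3 at an unadjusted p under 0.05; DESeq2 0), with 0% of all genes called higher and 0% lower. For Day 17 none was called (2 at an unadjusted p under 0.05; DESeq2 0), with 0.351% of genes higher and 0% lower. For Day 24, 8 of 82 were called, all with a lower change in responders, and none higher (all genes: 2.1% lower, 1.67% higher). With limma on log2(TPM + 1) the direction turned: 20 of 73 members were called higher and none lower, beside 41.4% of all genes higher and a median of all genes at 0.38, and the values of Atp5l, Uqcrh and Atp5b were 0.055, 0.11 and 0.11. On the TMM scale the 8 were Atp5l (-1.13 ± 0.31 SE, adjusted p = 0.0251), Uqcrh (-1.12, adjusted p = 0.0280), Atp5b (-0.98, adjusted p = 0.0322), Atp5h, Cox6a1, Cox7b, Cox7a2 and Cox6c, all of the steep class. Without the Day 24 library of non-responder 29 none was called (21 at an unadjusted p under 0.05), and the value of Atp5l was -0.54. With the mouse as a block none was called either (24 at an unadjusted p under 0.05), nor with the haemoglobin share as a covariate (2 at an unadjusted p under 0.05). The ear tag series as a covariate gave 36, all lower, where 6.34% of all genes were lower and 3.21% higher.

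Genes around the respiratory chain were counted in fixed lists. The 13 subunits encoded in mitochondrial DNA all had a called upward slope on haemoglobin (median 0.62), highest for mt-Co1 (0.92) and mt-Co2 (0.89) of complex IV. None was called between the groups on Day 4 (median 0.36), and on Day 9 mt-Co1 (0.43, adjusted p = 3.68e-05) and mt-Atp8 (0.64, adjusted p = 0.0096) were higher in responders. On Days 17 and 24, 2 of 13 were higher on each day. Of all genes, 6.4%, 9.43%, 0.799% and 3.41% were higher on Days 4, 9, 17 and 24. From Day 4 to Day 9, 9 of 13 fell in responders (median -0.72) and 12 of 13 in non-responders (median -0.58). By Day 24 8 of 13 fell in each group (medians -0.57 and -0.45). Of all genes, 14.2% and 27.5% were lower on Day 9, and 9.94% and 24.8% on Day 24. The medians of the nuclear members in these comparisons were -0.15 and -0.13 on Day 9 and -0.32 and -0.09 on Day 24.

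Complex II, cytochrome c1 and cytochrome c (Sdha to Sdhd, Cyc1 and Cycs) had 0 of 6 called between the groups on any of the 4 days. Of all genes, 0.799% to 9.43% were higher and 1.01% to 5.14% lower on these days. By Day 24 3 of 6 were lower in responders (9.94% of all genes) and 2 of 6 in non-responders (24.8% of all genes), with Sdhb, the iron-sulfur subunit, at -0.24 and -0.21. Of 28 tested assembly factors of complexes III to V, Cox17, a copper carrier for complex IV, Cox20 and Pet100 were higher in responders on Day 4 (log2 0.41, 0.32 and 0.71). Cox17 and Pet100 were so on Day 9 as well (0.44 and 0.84), and both have upward haemoglobin slopes (0.43 and 0.74). The counts were 3 of 28 on Day 4 and 2 of 28 on Day 9, where 6.4% and 9.43% of all genes were higher. On Day 17 2 of 28 were higher and on Day 24 1 was lower, where 0.799% of all genes were higher and 5.14% lower.

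The tricarboxylic acid cycle had 0 of 13 genes called between the groups on Days 4 and 17. On Day 9 1 was higher in responders (Ogdh), and on Day 24 2 were higher and 1 lower. Of all genes, 9.43% were higher on Day 9, and 3.41% were higher and 5.14% lower on Day 24. Over time 4 to 10 of its 13 genes fell and none rose in each comparison with Day 4. Over those comparisons 9.94% to 27.5% of all genes were lower and 7.44% to 23.8% higher. Of 14 glycolysis genes 9 were lower by Day 24 in responders, where 9.94% of all genes were, and 13 in non-responders, where 24.8% were. Of 12 outer membrane and import proteins 6 fell by Day 24 in responders (9.94% of all genes) and 8 in non-responders (24.8%), among them the prohibitins Phb and Phb2. Of 12 regulators of mitochondrial biogenesis none was called between the groups on Days 4, 17 and 24. On Day 9 Tfam, the packaging protein of mitochondrial DNA, was lower by 0.17 in responders (adjusted p = 0.0061). Of all genes, 9.43% were higher and 3.95% lower on Day 9. On the other days 0.799% to 6.4% were higher and 1.01% to 5.14% lower.

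Over the same days 9 of 9 T cell genes fell by Day 9 in both groups (medians -0.55 in responders and -0.61 in non-responders), and monocyte genes rose (5 of 7 and 7 of 7). By that day B cell genes were lower in 5 of 8 in responders and 8 of 8 in non-responders. Platelet genes were lower in 1 and 7 of 8 (median -0.43 in both groups), and neutrophil genes were higher in 3 and 7 of 8. Of all genes, 14.2% were lower and 13.5% higher in responders on Day 9, and 27.5% and 23.3% in non-responders. The summed T cell level on Days 4 and 9 was 133 to 214 (median 159) CPM and 78.4 to 132 (median 111) CPM in responders and 130 to 231 (median 157) CPM and 86.5 to 130 (median 113) CPM in non-responders. By Day 24 all 7 natural killer cell genes were lower in both groups (medians -0.69 in responders and -0.67 in non-responders). T cell genes were lower in 6 and 8 of 9, and platelet genes in 3 and 7 of 8 (medians -0.58 and -0.57). Of all genes, 9.94% were lower in responders and 24.8% in non-responders on Day 24. The summed natural killer level was 37.5 to 95.0 CPM on Day 4 and 25.2 to 41.3 CPM on Day 24 in responders, and 28.2 to 102 CPM and 15.9 to 48.3 CPM in non-responders. The part of these shifts in the members' changes was not tested.

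The effector memory T cell signature of the study holds 4 members: Atp5h, Atp5j2, Cox5b and Ndufa13, a complex I subunit also known as a cell death regulator. The study drew this signature from single cells of Day 9 in a separate cohort of mice, while the values here are bulk RNA of whole blood. The part of T cells in these bulk levels was not tested. On Day 9 none of the 9 T cell genes was called between the groups (median log2 0.015). All 4 members were higher in responders on Day 9, where 9.43% of all genes were. Atp5h was 1.57-fold higher (22.6, 39.05 and 56.6 CPM against 14.3, 23.2 and 37.4 CPM), Ndufa13 1.37-fold (5.88, 8.22 and 12.9 CPM against 4.55, 6.055 and 8.23 CPM), Atp5j2 1.24-fold and Cox5b 1.22-fold. The ranges of the groups overlapped in Atp5h and Ndufa13. On Day 4 Atp5h, Ndufa13 and Atp5j2 were called and Cox5b was not (adjusted p = 0.140). On Day 17 Atp5j2 was called and Atp5h, Ndufa13 and Cox5b were not, and on Day 24 none was. With the haemoglobin share as a covariate all 4 stayed called on Day 9, with log2 fold changes of 0.28, 0.32, 0.20 and 0.29 in the order Atp5h, Ndufa13, Atp5j2 and Cox5b. With the haemoglobin share and the ear tag series both as covariates no member passed on Day 9, nor in the 4-digit series alone. On deposited TPM most members were lower in responders on that day.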

How the data were processed

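Libraries were polyA RNA of whole blood made with a SMARTer kit. The submitters' processing notes name STAR and the mm10 build; the STAR version, the counting tool and the annotation are not given in the sources used here. The authors deposited estimated counts per gene, not normalized, and TPM; 3.14% of the count values were not whole, and counts were rounded before testing, although whole counts had been assumed when the tests were chosen. All 55450 gene IDs and symbols match GENCODE M21 (GRCm38), used for positions. No column was left unused (0).

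Groups came from the labels. Genes passed edgeR's filterByExpr in each fit and were tested with edgeR 4.0.16 (TMM, quasi-likelihood test, Benjamini-Hochberg adjustment over all tested genes) in R 4.3.3: responders against non-responders on each day, each later day against Day 4 within a group, the interaction of response and day, and the slope on the haemoglobin share within groups of day and response. Calls have an adjusted p of at most 0.05. Shares were compared with two-sided permutation tests (100000 resamples, or exact) in SciPy 1.17.1. Levels are log2 CPM with a prior count of 2.

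Alternatives were DESeq2 1.42.0, no filter, haemoglobin genes removed before scaling, haemoglobin share or ear tag series as covariates, the mouse as a block (for changes over time and the interaction, not for the slope), a fold of at least 1.5, and limma 3.58.1 on log2(TPM + 1) for genes averaging 1 TPM or more. Each series alone, both covariates together each day alone for the slope and complex levels without non-responder 29 were chosen after seeing the data. The 4 libraries of a mouse share its ear tag, so they come from 1 animal. Their deviations from the group means had a mean correlation of 0.043 (-0.39 to 0.44, 264 pairs) against 0.0012 between mice. The fits were checked on simulated counts.

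The members and lists were chosen with earlier results of these data known. Genes named were, per comparison, the 3 called members with the smallest p in each direction, the 2 members highest and lowest in TPM per complex, isoform partners, untested members and those of the study's T cell signature; others were picked after their values were seen. The values of 1 listed gene are not reported here.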

Additional observations from a re-analysis of the deposited data

Results flagged for a closer look

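The change from Day 4 to Day 24 differed between responders and non-responders in 8 members by the interaction term in edgeR. The log2 differences, responders minus non-responders, were -1.13 for Atp5l, -1.12 for Uqcrh, -0.98 for Atp5b, -0.92 for Cox6a1, -0.90 for Atp5h, -0.86 for Cox7b, -0.81 for Cox7a2 and -0.80 for Cox6c. None of the 8 was called without the Day 24 library of non-responder 29, where the value of Atp5l was -0.54, and none with the mouse as a block, where it was -0.69. On log2(TPM + 1) the value of Atp5l turned to 0.055.

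Ndufb1-ps, which the choice of members left out by its name, had counts in all 178 libraries, with a median of 110.5 counts (22 to 389). It was not part of the comparisons.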

How the results depend on the processing

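Of the counts of called members, complex levels and haemoglobin shares under each alternative, 121 stayed near their value, 55 moved (10 of them complex levels on TPM that changed sign), 2 lost their call and 2 reversed. These counts of members take no account of direction, and on log2(TPM + 1) it turned on Day 9 (1 higher, 55 lower) and in the haemoglobin slope (0 upward, 72 downward). Of the values for named members, 332 kept their sign and their side of the threshold, whatever their size, 74 kept their sign and lost the call, and 16 reversed. Haemoglobin took most counts, so depth for the members is that of 4535330 to 22174668 other counts.

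Between responders and non-responders, the haemoglobin share as a covariate gave 0 called members on Day 4. The ear tag series as a covariate gave 50 on Day 4, 0 on Day 17 and 1 on Day 24. The 4-digit series alone gave 0 on Days 4 and 9, the 3-digit series alone 0 and 21, and both covariates 0 and 0. DESeq2 gave 18 on Day 17 and 9 on Day 24, and no filter 2 and 1. Counting the Day 17 library of non-responder 24 as a responder gave 4 on Day 17, and leaving out the Day 24 library of non-responder 29 gave 14 on Day 24. A fold of at least 1.5 gave 16, 15, 1 and 0 on Days 4, 9, 17 and 24. Over time that limit gave 0, 0 and 3 (all lower) in responders and 0, 0 and 6 (all higher) in non-responders; the 6 became 0 without the Day 24 library of non-responder 29, with DESeq2 or with the mouse as a block. In addition, the haemoglobin covariate gave 37 for Day 17 in non-responders.

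For the interaction on Day 24, DESeq2 called 15, no filter 1, the ear tag series as a covariate 36, and the fits without that library of non-responder 29, with the haemoglobin covariate or with the mouse as a replicate block 0. With the block the counts over time were 27, 19 and 42 in responders and 32, 25 and 37 in non-responders, and it changed no other call of a named member than those of Atp5l, Uqcrh and Atp5b in the interaction. The slope on haemoglobin was called in 28 members on Day 9 alone and 29 on Day 17 alone.

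On log2(TPM + 1), limma called 61 members on Day 4 and 0 on Days 17 and 24 between the groups; 1, 0 and 0 over time in responders; 6, 64 and 64 in non-responders (on Days 17 and 24 all lower); and 20 in the interaction on Day 24, all higher where the counts gave 8 lower. TPM holds haemoglobin in its total. Relative to the median of all genes, all 43 named values found in this fit kept their sign, Ndufc2 in the slope by only -0.005. These members were named for their calls on the TMM scale, so this count is no separate test of the reversals. In raw sign 15 reversed: -0.097 for Cox7b and -0.13 for Atp5k on Day 4, -0.17 for Uqcr11 on Day 9, -0.017 for Uqcrc1 and -0.019 for Ndufv1 on Day 24; in non-responders -0.0066 for Ndufa1 and -0.17 for Ndufb2 on Day 17 and -0.018 for Atp5b and -0.027 for Cox7b on Day 24; in the interaction 0.055 for Atp5l, 0.11 for Uqcrh and 0.11 for Atp5b; and in the slope -0.36 for Cox6c, -0.425 for Atp5h and -0.40 for Cox6a1. Ndufa1 on Day 17 in non-responders was at -0.0033 with the haemoglobin covariate.

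Complex levels on log2(TPM + 1), responders minus non-responders, were -0.40 and -0.37 for complex I, -0.38 and -0.33 for III, -0.26 and -0.19 for IV and -0.40 and -0.38 for V on Days 4 and 9, and -0.00054 for III and -0.018 for V on Day 17. The difference in haemoglobin share was 2.62 points on Day 4 and 1.61 on Day 9 in the 4-digit series alone, no longer past the threshold, and turned to -1.75 on Day 17 in the 3-digit and -0.80 on Day 24 in the 4-digit series. The causes of these changes, the make-up of TPM among them, were not tested.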
